A study of Rattus norvegicus with 36 samples.

Results

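Rat amygdala was compared with rat anterior cortex in sham-exposed animals, using the sham libraries of an RNA sequencing study of blast exposure. The members are the libraries whose labels name sham exposure and these regions: 4 amygdala libraries (numbers 12, 13, 16 and 18) and 5 anterior cortex libraries (numbers 10, 12, 13, 16 and 18), 9 of the 36 libraries of the series. The labels call these rats sham-exposed, without saying what the procedure was, and give a time of 6 weeks after exposure. The other libraries come from hippocampus and cerebellum of sham rats and from all 4 regions of blast-exposed rats, of which 5 amygdala and 3 anterior cortex libraries were used here as a repeat. The labels give no strain, sex or age, and do not say which part of the cortex, which amygdaloid nuclei or which side was dissected.

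The amygdala is a group of nuclei in the temporal lobe that attaches emotional value to sensory events and drives fear and reward behaviour. Its basolateral part is built mainly of glutamatergic neurons related to those of the cortex, its central part of GABAergic neurons related to those of the striatum, and its medial part draws some neurons from hypothalamic territory in development and carries many sex steroid receptors. The anterior cortex is a layered sheet in which upper layers connect cortical areas with each other and deep layers project to targets below the cortex. A bulk comparison of the regions therefore reads differences in cell makeup together with differences within cells. A lower bulk level can mean fewer cells of a type or less of its RNA per cell, and these cannot be told apart here.

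Between 15667480 and 21988689 counts fell on genes in the 9 libraries. Expression is given as CPM, counts relative to library size after TMM scaling (trimmed mean of M values, a scaling that assumes most genes do not differ), and the values of single libraries follow the number order given above. A gene was called when its Benjamini-Hochberg adjusted p in edgeR's quasi-likelihood F test was under 0.05, and log2 fold changes are amygdala over cortex, so that positive values are higher in amygdala. A fold given for a gene is that of its fitted log2 fold change. The first principal component held 38.9% of the variance and separated the regions, and on the second cortex library 16 (30.0) and amygdala library 18 (-24.1) lay farthest apart. Cortex library 16 also had the lowest share of mitochondrial genome counts among the cortex libraries, 14.17% against 18.81% to 19.74% in the other 4. The labels do not state that the numbers are separate animals, so p-values measure the spread between these libraries, which may be technical. Each region was deposited in its own table, and any step that was done region by region cannot be told apart from the region itself.

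Of 15769 genes tested, 4715 were called (29.9%), 2234 higher in amygdala (14.2%) and 2481 lower (15.7%). Most differences were small: the median absolute log2 fold change of the called genes was 0.47, and 732 of them differed by more than 2-fold, 446 higher and 286 lower in amygdala. A test against a change of 1.5-fold (glmTreat) called 516 genes (3.27%), 289 higher in amygdala (1.83%) and 227 lower (1.44%). The groups did not overlap for 3944 genes, 25.0% of those tested. Scaled by library size alone, 4827 genes were higher and 1347 lower in amygdala, with the median of all genes shifted to 0.18, so that the balance between directions depends on the scaling. List counts given below for that scaling are to be compared with these 2 counts, out of the same 15769 genes. 

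The blast libraries, which share no sample with the sham ones, served as a repeat. They come from the same region tables, so a step done region by region could recur in them. Blast amygdala library 6 stood apart from the other 4 of its group. Its mean log2 CPM was in or below the range of the blast cortex libraries for basolateral markers (4.388, against 5.034 to 5.184 in the other blast amygdala libraries and 4.486 to 4.599 in cortex) and imprinted genes (3.785, against 4.407 to 4.606 and 3.538 to 3.81). It was nearer to cortex than to its group for upper layer markers (4.007, against 3.144 to 3.39 and 4.037 to 4.263) and myelin (7.005, against 6.206 to 6.557 and 7.094 to 7.459). For dentate granule cell markers (4.847, against 4.707 to 4.982 and 3.689 to 3.866) and mitochondrial mRNAs (11.684, against 11.568 to 11.992 and 12.398 to 12.698) it lay with the amygdala libraries. Other lists put it below its group on the side away from cortex. These were striatal markers (2.89, against 3.073 to 3.569 and 4.343 to 4.648), microglial markers (4.426, against 4.708 to 4.961 and 5.0 to 5.278) and olfactory bulb markers (2.318, against 2.64 to 3.127 and 3.18 to 3.415).

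With all 8 blast libraries, the regional differences had the same direction as in the sham ones for 4519 of the 4715 genes (95.8%, against 75.8% of all genes tested). There, 1922 genes were called (12.2%), 782 higher in amygdala (4.96%) and 1140 lower (7.23%). Both sets of libraries called 1593 genes in the same direction, 33.8% of the sham calls and 82.9% of the blast calls, and 0 genes in opposite directions. Of the 516 genes past 1.5-fold in the sham libraries, 513 had the same sign in the blast libraries (99.4%) and 341 were called there (66.1%). Without amygdala library 6 the blast libraries called 2638 genes (16.7%), 1128 higher (7.15%) and 1510 lower (9.58%), 2130 of them in the same direction as the sham calls, and 455 of the 516 were called. The same direction was then found for 4524 of the 4715. The blast count also moved with other libraries: it was 1125 without amygdala library 1, 1171 without amygdala library 2, 998 without cortex library 1 and 1005 without cortex library 6. Values from the blast libraries are given below for all 8, with the value without amygdala library 6 beside them. Library 6 was set apart by markers of the regional difference itself, so leaving it out favours agreement with the sham calls. The values without it are a description and no further repeat.

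**Figure D1:**
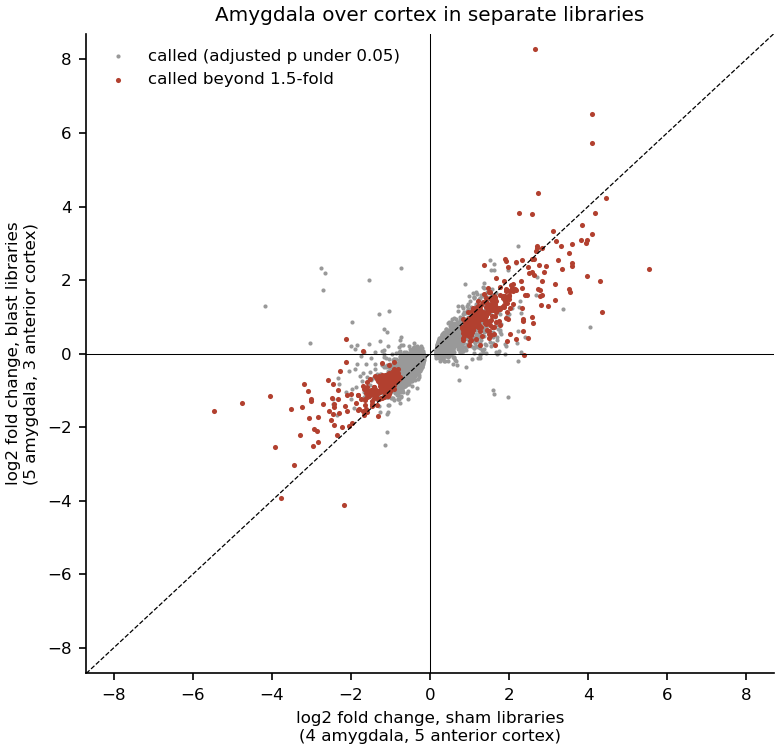
Log2 fold changes, amygdala over anterior cortex, of the 4715 genes called in the sham libraries (horizontal axis, 4 against 5 libraries) and in the blast libraries (vertical axis, 5 against 3 libraries); red points are the 516 genes called beyond 1.5-fold and the dashed line marks equal values. Nearly all points lie in the lower left and upper right, 4519 of 4715 with the same sign.

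Whether the regional difference itself changed with exposure was tested in 1 fit over all 17 libraries. edgeR's quasi-likelihood F test called 0 of 16553 genes (smallest adjusted p = 0.764), with 1062 genes (6.42%) at an unadjusted p under 0.05, and DESeq2 called 4 genes (Rpl36, Pcdh17, Nhp2 and AABR07044362.6, named here after their values were seen). The genes of smallest p were Rpl36, a ribosomal protein gene, Pcdh17, a protocadherin, and Ift74, a ciliary transport gene, none past the threshold. Without blast cortex library 5 the quasi-likelihood test called 1 gene, Anp32a (ENSRNOG00000014846). These counts do not show that exposure left the regional differences alike.

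Among the genes far above cortex were C1ql2, a secreted synaptic organizer, Plagl1, an imprinted zinc finger gene, Trhr, the receptor of thyrotropin-releasing hormone, and Npy2r, a neuropeptide Y receptor. C1ql2 stood at 29.3, 34.2, 18.1 and 17.4 CPM in amygdala and 1.47, 1.47, 1.98, 1.64 and 0.598 CPM in cortex. Plagl1 measured 34.8, 29.5, 28.1 and 27.7 CPM in amygdala and 1.32, 1.62, 2.69, 2.58 and 4.39 CPM in cortex. Every amygdala library lay above every cortex library for both genes, 17.1-fold and 12.2-fold by the fit (log2 fold change 4.09, SE 0.28, adjusted p = 7.0e-07 for C1ql2, and log2 fold change 3.603, SE 0.24, adjusted p = 7.1e-07 for Plagl1), and both were called in the blast libraries, with log2 fold changes of 3.25 and 2.99 (3.301 and 3.23 without library 6). C1ql2 is also a marker of dentate granule cells, and its mean in the sham hippocampus libraries was 168 CPM. Among 5 dentate granule cell markers tested, a list added after the results were seen, 3 were higher in amygdala and 0 lower (60.0% and 0%, against 14.2% and 15.7% of all genes), Prox1 and Calb1 besides C1ql2, while C1ql3 and Dsp were not called. Prox1 and Calb1 are also counted among the interneuron class markers below, so they are not particular to dentate granule cells. What part hippocampal tissue has in these values was not tested. The greatest fold among named genes belonged to Sccpdh, at 39.3, 4.94, 9.85 and 8.96 CPM in amygdala and 1.08, 1.17, 0.550, 0.378 and 0.598 CPM in cortex. Amygdala library 12 was the highest, and without it the log2 fold change was 3.35 (adjusted p = 5.8e-05) against 4.34 with it. Sccpdh was not called in the blast libraries (adjusted p = 0.57, or 0.35 without library 6), nor was Fam131a (log2 fold change 3.17 in the sham libraries, adjusted p = 0.19 in the blast ones and 0.075 without library 6).

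In the other direction, the genes far below cortex included Adam33, a membrane metalloprotease, Robo3, an axon guidance receptor, Tnnc2, a fast muscle troponin, and Stac2, an adaptor of voltage-gated calcium channels. Stac2 was expressed at 31.3, 27.5, 26.5 and 28.3 CPM in amygdala and 192, 217, 239, 201 and 189 CPM in cortex. Its amygdala libraries were all far below the cortex libraries (log2 fold change -2.87, SE 0.086, adjusted p = 1.2e-09), and the blast libraries gave a log2 fold change of -2.12 (-2.49 without library 6). Robo3 stood at 3.202, 3.901, 3.47 and 3.62 CPM in amygdala and 28.98, 38.997, 39.6, 46.3 and 49.9 CPM in cortex, again with no overlap (log2 fold change -3.52, SE 0.16, adjusted p = 3.7e-08). In the blast libraries Robo3 had a log2 fold change of -1.52 with an adjusted p of 0.2, and without library 6 it was called (-2.96, adjusted p = 1.1e-05). 

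**Figure D2:**
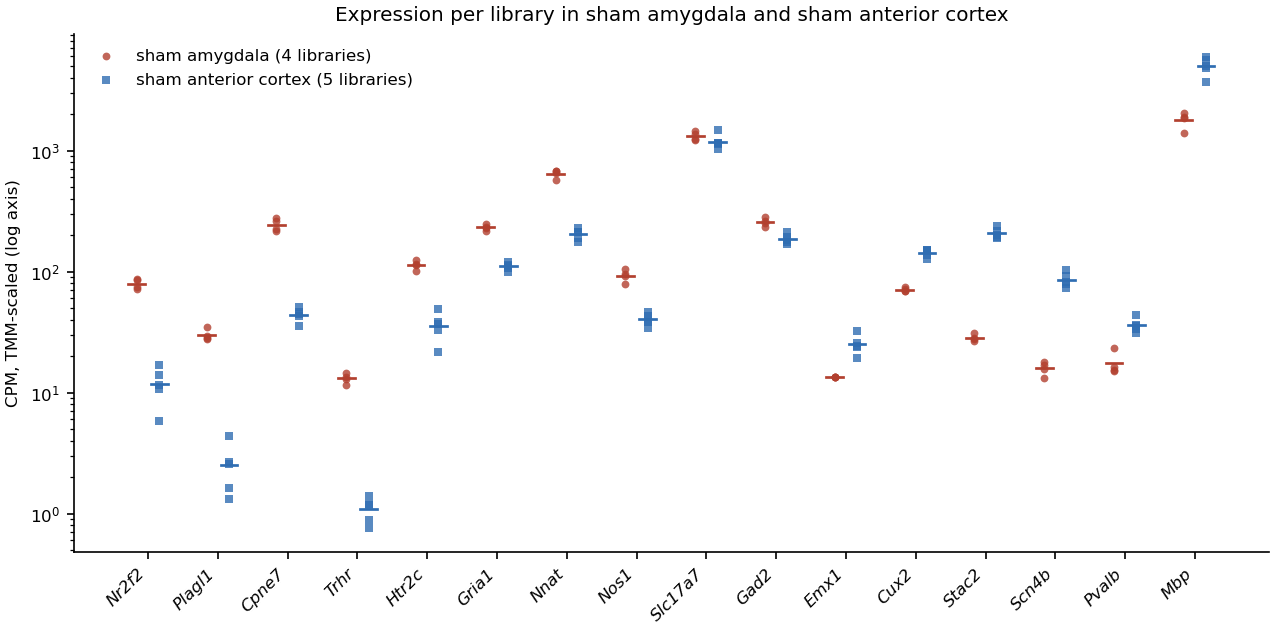
CPM after TMM scaling (log axis) of 16 genes in each sham amygdala library (red circles, 4 libraries) and each sham anterior cortex library (blue squares, 5 libraries), with short lines at the group means. The groups do not overlap for Nr2f2, Plagl1, Stac2 or Mbp, and overlap for Slc17a7.

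Transcription factors that lay out the forebrain separated the regions in both directions. Of 34 such genes tested, 6 were higher in amygdala and 11 lower (17.6% and 32.4%, against 14.2% and 15.7% of all genes, with which the shares in brackets after later lists are also to be compared), with a median log2 fold change of -0.16 against 0.008 over all genes. Scaled by library size alone, the median of these factors was 0.014, against 0.18 over all genes. Without cortex library 13 it was 0.016, against 0.0098 over all genes. Nr2f2, a nuclear receptor of caudal and ventral forebrain, measured 84.5, 72.1, 74.4 and 86.9 CPM in amygdala and 5.82, 10.6, 16.8, 11.6 and 13.96 CPM in cortex. All amygdala libraries exceeded all cortex libraries, 6.78-fold by the fit (log2 fold change 2.76, SE 0.21, adjusted p = 1.6e-06). Emx1, a homeobox factor of the pallium, went the other way with 13.5, 13.4, 13.4 and 13.5 CPM in amygdala and 19.2, 25.8, 23.8, 32.5 and 24.3 CPM in cortex. All 4 amygdala values were below all 5 cortex values (log2 fold change -0.90, SE 0.13, adjusted p = 2.0e-04).

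Lhx9, a LIM homeobox gene of the amygdala and diencephalon, was low throughout but 18.1-fold higher in amygdala (mean ± SD of 2.52 ± 0.678 CPM in amygdala and 0.129 ± 0.135 CPM in cortex, n = 4 and 5, adjusted p = 7.3e-05). Lmo3 and Lmo1, transcriptional partners of LIM factors, were also higher, with log2 fold changes of 0.72 and 0.70. Lower in amygdala, besides Emx1, were the pallial factor Tbr1 (-0.57) and the ventral forebrain and olfactory factors Sp8 (-2.34), Isl1 (-2.16), Meis2 (-0.71) and Zic1 (-0.59). Striatal and olfactory bulb markers were also lower, counted here without the genes these lists share with the patterning factors (2 of the striatal list, Isl1 among them, and Sp8 of the olfactory bulb list): 6 of 13 striatal markers were lower and 0 higher, and 3 of 7 olfactory bulb markers were lower and 1 higher. Over these genes the mean log2 CPM of the olfactory bulb list was 4.753 in cortex library 13, 3.444 to 3.947 in the other cortex libraries and 3.093 to 3.501 in amygdala. That of the striatal list was 4.249 in cortex library 13, 4.743 to 4.933 in the other cortex libraries and 3.671 to 4.389 in amygdala. Without cortex library 13 the log2 fold changes were -2.01 for Sp8, -2.34 for Isl1, -0.64 for Meis2 and -0.51 for Zic1, all still called. What part striatal or olfactory tissue has in these factors was not tested. Fezf2, which specifies deep layer neurons projecting below the cortex, was at 20.2 against 19.9 CPM and was not called (log2 fold change 0.025, SE 0.16, adjusted p = 0.92).

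Markers of cortical layers did not move as a block. Of 11 upper layer markers, 8 were lower in amygdala and 1 higher (72.7% and 9.09%), with a median log2 fold change of -0.79. Cux2, a homeobox gene of layers 2 to 4, stood at 69.6, 71.3, 68.5 and 74.1 CPM in amygdala and 126, 152, 137, 149.9 and 147 CPM in cortex. Amygdala kept the lower values in every library (log2 fold change -1.01, SE 0.066, adjusted p = 5.7e-07). Rorb, a nuclear receptor of layer 4, was also lower (13.3 against 20.9 CPM, log2 fold change -0.66), and the exception was Mdga1, a membrane protein that limits synapse formation (0.77). Of 14 deep layer markers, 5 were higher and 3 lower (35.7% and 21.4%), with a median of 0.20: Crym (1.01), Parm1 (0.82), Etv1 (0.53) and Bcl11b (0.52) were higher, and Pcp4 (-0.76), Foxp2 (-0.75) and Syt6 (-0.65) lower. Etv1 and Foxp2 mark neurons of the amygdala too, so these lists are not exclusive to cortex.

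The labelled tissue was checked against markers of amygdaloid nuclei, in bulk libraries in which no nucleus was sampled on its own. Markers of basolateral excitatory neurons were mostly higher, 9 of 12 with 1 lower (75% and 8.33%) and a median of 0.62. Slc17a6, a vesicular glutamate transporter of subcortical neurons, was at 17.1, 20.1, 27.4 and 21.9 CPM in amygdala and 9.82, 10.4, 13.9, 8.93 and 10.6 CPM in cortex. All amygdala libraries were above all cortex libraries (log2 fold change 1.01, SE 0.15, adjusted p = 2.8e-04). Rspo2, a secreted Wnt pathway enhancer that marks basolateral neurons in mouse, measured 20.7, 29.7, 24.1 and 18.04 CPM in amygdala and 13.1, 14.5, 14.8, 21.8 and 13.3 CPM in cortex. Its groups overlapped through cortex library 16, and its call (log2 fold change 0.58, SE 0.17, adjusted p = 0.02) ended without amygdala library 13 (adjusted p = 0.074) or 16 (adjusted p = 0.052). Cyp26b1, which degrades retinoic acid, was not called at 28.05 against 26.7 CPM. In the blast libraries 3 of the 12 were called higher and 1 lower, or 5 and 1 without library 6, and all 10 genes called in the sham libraries had the same sign.

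Of 12 markers of the central nucleus tested, 3 were higher and 3 lower (25% and 25%), or 6 higher when scaled by library size alone, and 1 was higher and 2 lower in the blast libraries (2 and 3 without library 6). Prkcd, a kinase of central lateral neurons, stood at 18.03, 22.4, 15.4 and 16.3 CPM in amygdala and 17.99, 18.6, 19.4, 18.5 and 26.1 CPM in cortex. The groups overlapped and the gene was not called (log2 fold change -0.15, SE 0.14, adjusted p = 0.43), and its level was no higher than in cortex. Crh, the stress peptide, was lower in amygdala (1.47 against 3.41 CPM), and Scn4b was lower. The 3 higher ones were Dlk1 (2.004), Sst and, by a narrow margin, Cartpt, and Penk and Nts were not called. The list's median log2 fold change was 0.30 in the sham libraries and -0.12 in the blast ones (-0.03 without library 6). 

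Of 13 markers of the medial nucleus listed, 9 were tested, with 5 higher and 1 lower (55.6% and 11.1%), at low levels. Lhx9 and Cyp19a1 among them passed the filter on low counts only through the amygdala libraries, so their direction was set by it. Esr1, an estrogen receptor, was at 3.01, 4.0002, 3.47 and 5.22 CPM in amygdala and 1.52, 1.52, 0.770, 0.503 and 0.997 CPM in cortex. Cyp19a1, the aromatase that makes estrogen from androgen, was at 4.096, 3.26, 3.92 and 3.93 CPM in amygdala and 0.733, 0.203, 0.660, 0.126 and 0.931 CPM in cortex. Both were higher in all amygdala libraries than in any cortex library (log2 fold change 1.86, SE 0.31, adjusted p = 7.3e-04 for Esr1, log2 fold change 2.83, SE 0.40, adjusted p = 2.2e-04 for Cyp19a1) and both were called in the blast libraries (adjusted p = 0.044 and 0.048, or 0.0091 and 0.016 without library 6). Nr3c2, the mineralocorticoid receptor, was also higher (31.4 against 19.3 CPM, log2 fold change 0.70). In all, 3 of 10 steroid receptors and enzymes were higher in amygdala and 1 lower (30% and 10%). Of 8 intercalated cell markers, 2 were higher and 2 lower (25% and 25%).

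Of 14 markers of cortical and hippocampal type excitatory neurons, 3 were higher in amygdala and 7 lower (21.4% and 50%), with a median of -0.30. Slc17a7 of this list, the vesicular glutamate transporter of cortical neurons, was at 1360.4, 1438, 1229 and 1253 CPM in amygdala and 1146, 1132, 1035, 1471 and 1144 CPM in cortex, overlapping and not called (log2 fold change 0.16, SE 0.096, adjusted p = 0.25). On the authors' FPKM scale, which divides by gene length, Slc17a7 stood at 569 ± 49.04 in amygdala and 456 ± 76.1 in cortex, and Slc17a6 at 5.699 ± 1.19 and 2.52 ± 0.429. Of 7 genes of GABA synthesis, loading and uptake, 2 were higher and 0 lower (28.6% and 0%), Gad2 (log2 fold change 0.46, SE 0.077, adjusted p = 6.9e-04) and Gad1 (log2 fold change 0.31, SE 0.098, adjusted p = 0.031), the enzymes that make GABA. Gad2 measured 259, 232, 281 and 249.7 CPM in amygdala and 182, 194, 176, 167 and 212 CPM in cortex. The groups did not overlap for Gad2 and did for Gad1, whose call ended in 6 of the 9 fits that left out a library, the largest adjusted p being 0.1 without amygdala library 16. The vesicular GABA transporter Slc32a1 was not called at 85.9 against 83.2 CPM. In the blast libraries 0 of the 7 were called higher and 1 lower, with a median of -0.05. There Gad2 had a log2 fold change of -0.017 (adjusted p = 0.92) and Gad1 of 0.31 (adjusted p = 0.055). Without library 6 Gad2 was at 0.032 (adjusted p = 0.83) and Gad1 was called at 0.33 (adjusted p = 0.04).

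Interneuron classes were divided. Of 19 class markers tested, 10 were higher in amygdala and 6 lower (52.6% and 31.6%), with a median of 0.56. Nos1, neuronal nitric oxide synthase, was at 95.9, 78.7, 91.1 and 105 CPM in amygdala and 45.9, 40.2, 38.6, 34.04 and 42.8 CPM in cortex. Pvalb, a calcium buffer of fast-spiking basket cells, was at 16.2, 23.2, 15.4 and 14.97 CPM in amygdala and 33.8, 30.8, 36.5, 35.4 and 44.2 CPM in cortex. Nos1 was higher and Pvalb lower in every amygdala library (log2 fold change 1.199, SE 0.096, adjusted p = 2.4e-06 for Nos1, log2 fold change -1.04, SE 0.14, adjusted p = 1.3e-04 for Pvalb). Other calcium-binding markers, Calb2 (1.19) and Calb1 (0.83), and the matrix protein Reln (0.87) were higher, and Lamp5 (-1.58), a marker of neurogliaform cells and some pyramidal cells, was lower. Several of these genes are also made by excitatory neurons.

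Neuropeptide precursors showed no common direction. Of 18 tested, 5 were higher in amygdala and 4 lower (27.8% and 22.2%), with a median of 0.15. Sst, the inhibitory peptide somatostatin, stood at 114, 105, 116 and 81.97 CPM in amygdala and 74.3, 49.2, 74.03, 91.3 and 64.9 CPM in cortex. The ranges of the groups overlapped, and the gene was called (log2 fold change 0.56, SE 0.15, adjusted p = 0.012) and called again in the blast libraries (adjusted p = 0.019, or 0.017 without library 6). Pnoc, the precursor of nociceptin, was 2.65-fold higher (7.61 ± 1.75 CPM in amygdala and 2.87 ± 0.415 CPM in cortex, adjusted p = 1.7e-04). Cck, cholecystokinin, was lower (201 ± 34.7 CPM in amygdala and 323 ± 75.4 CPM in cortex, adjusted p = 0.0045), and Cartpt, a feeding and reward peptide, was higher by a narrow margin (11.8 ± 2.32 CPM in amygdala and 8.49 ± 1.63 CPM in cortex, adjusted p = 0.045), a call that ended in 7 of the 9 fits that left out a library, with the largest adjusted p, 0.16, without amygdala library 12. Substance P precursor Tac1, neurokinin B precursor Tac3, Pdyn, Penk and Nts were not called. In the blast libraries Cartpt overlapped between regions, at 2.93 to 13.6 CPM in amygdala and 7.57 to 12.2 CPM in cortex.

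Sst is the textbook target of the cAMP response element, the sequence to which CREB binds, so its promoter is shown with that of Cartpt, the other of the 13 peptide genes with a RefSeq promoter that held TGACGTCA. The windows run from 250 bases before to 50 after the RefSeq start on build GRCr8, 5′ to 3′ on the gene's strand, with TGACGTCA, and in Sst also TAATTA, in capitals. TGACGTCA reads the same on both strands.
Sst, chr11:90461296-90461595, plus strand: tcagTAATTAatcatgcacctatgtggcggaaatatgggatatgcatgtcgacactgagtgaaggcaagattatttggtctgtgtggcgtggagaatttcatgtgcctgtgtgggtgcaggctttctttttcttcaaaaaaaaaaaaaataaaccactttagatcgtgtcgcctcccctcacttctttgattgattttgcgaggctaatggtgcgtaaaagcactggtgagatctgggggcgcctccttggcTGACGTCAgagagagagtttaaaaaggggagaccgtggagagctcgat
Cartpt, chr2:32991186-32991485, minus strand: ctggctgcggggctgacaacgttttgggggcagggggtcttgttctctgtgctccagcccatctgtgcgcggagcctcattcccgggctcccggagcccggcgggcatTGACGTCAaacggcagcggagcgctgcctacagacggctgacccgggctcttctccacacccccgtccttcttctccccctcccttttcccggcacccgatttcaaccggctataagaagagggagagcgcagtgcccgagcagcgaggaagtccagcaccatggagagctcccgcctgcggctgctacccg
TGACGTCA began 2 bases after the annotated start in Sst and 142 bases before it in Cartpt. Of all RefSeq promoters of this length 1.91% held it, and of those of tested genes 3.04%, of genes higher in amygdala 3.1% and of genes lower 2.71%. TAATTA, a core read by many homeodomain factors, was in 2.19% of tested promoters, in 3.1% of those higher and in 1.38% of those lower in amygdala. These shares describe letters in a window and say nothing of binding.

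More peptide receptors were higher than lower in amygdala: 15 of 29 tested were higher and 3 lower (51.7% and 10.3%), with a median log2 fold change of 0.77. Trhr was at 14.5, 12.99, 13.5 and 11.7 CPM in amygdala and 1.17, 0.761, 1.21, 0.881 and 1.396 CPM in cortex. Npy2r, an inhibitory autoreceptor for neuropeptide Y, was at 8.48, 7.01, 6.49 and 8.41 CPM in amygdala and 0.4399, 0.558, 0.330, 0.818 and 1.197 CPM in cortex. Neither receptor overlapped between regions (log2 fold change 3.601, SE 0.18, adjusted p = 9.1e-08 for Trhr, log2 fold change 3.53, SE 0.30, adjusted p = 3.3e-06 for Npy2r), and both were called in the blast libraries (2.46 and 2.75, or 2.67 and 2.93 without library 6). The 2 receptors of corticotropin-releasing hormone went opposite ways in the sham libraries: Crhr2 was higher (10.8 ± 1.11 CPM in amygdala and 2.96 ± 1.45 CPM in cortex, adjusted p = 1.6e-04) and Crhr1 lower (7.52 ± 0.8299 CPM in amygdala and 12.1 ± 1.28 CPM in cortex, adjusted p = 0.0012). In the blast libraries Crhr1 overlapped, at 6.90 to 13.3 CPM in amygdala and 8.75 to 12.4 CPM in cortex. Crhr2 did not overlap there, at 4.43 to 14.1 CPM in amygdala and 2.40 to 2.98 CPM in cortex. Adcyap1r1, the receptor of PACAP, was higher by 0.53 on the log2 scale (331 ± 18.9 CPM in amygdala and 229.7 ± 28.8 CPM in cortex). The oxytocin receptor Oxtr (2.03 against 0.361 CPM), the galanin receptor Galr1 (3.62 against 0.561 CPM) and the mu opioid receptor Oprm1 (2.87 against 0.875 CPM) were higher at low levels. Without amygdala library 16 the Oprm1 call ended (adjusted p = 0.053).

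Serotonin receptors were higher in 5 of 11 and lower in 2 (45.5% and 18.2%), with a median of 0.89. Htr2c, a Gq-coupled receptor, measured 113, 115, 125 and 102 CPM in amygdala and 49.2, 38.1, 21.5, 32.6 and 37.04 CPM in cortex. It was 3.18-fold higher with no overlap (log2 fold change 1.67, SE 0.17, adjusted p = 1.4e-05), and in the blast libraries its log2 fold change was 0.86 (adjusted p = 0.099), or 1.06 and called without library 6 (adjusted p = 0.0012). Blast amygdala library 9 was the highest of its group for Htr2c (122 CPM, against 34.1 to 94.7). Library 9 also stood apart for choroid plexus markers (mean log2 CPM 5.261, against 0.477 to 1.206), whose part in the blast Htr2c values was not tested. In the sham libraries Htr2a, a close relative of Htr2c, was lower (23.3 ± 5.05 CPM in amygdala and 36.4 ± 8.95 CPM in cortex, adjusted p = 0.017, or 0.067 when scaled by library size alone), and Htr1a, an inhibitory receptor, was higher (9.87 ± 3.402 CPM in amygdala and 4.21 ± 0.927 CPM in cortex, adjusted p = 0.0016). Htr5b was near 0 in 4 of 5 cortex libraries, 4.66, 7.01, 3.87 and 2.45 CPM in amygdala and 0.0489, 0.152, 0.990, 0.0629 and 0 CPM in cortex, and higher in amygdala (adjusted p = 6.0e-04).

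Dopamine, adrenergic and muscarinic receptors were divided, with 4 of 15 higher and 5 lower (26.7% and 33.3%). Chrm5, a muscarinic receptor, was 14.4-fold higher (4.88 ± 1.19 CPM in amygdala and 0.331 ± 0.211 CPM in cortex, adjusted p = 3.3e-05), and Adra1b, an alpha-1 adrenergic receptor, lower (6.13 ± 0.612 CPM in amygdala and 15.9 ± 3.05 CPM in cortex, adjusted p = 2.7e-05). Drd2 was lower (5.99 against 12.7 CPM, log2 fold change -1.08) and Drd1 was not called (11.1 against 14.2 CPM, log2 fold change -0.35, adjusted p = 0.35).

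Ionotropic glutamate receptor subunits were higher in 7 of 16 and lower in 1 (43.8% and 6.25%). Gria1, an AMPA receptor subunit, stood at 229.7, 246, 234 and 218 CPM in amygdala and 113, 112, 99.1, 121 and 107 CPM in cortex. Every amygdala library was above every cortex library (log2 fold change 1.07, SE 0.064, adjusted p = 2.7e-07), and the blast libraries gave 0.79 (0.83 without library 6). The kainate subunits Grik2 (0.68) and Grik1 (0.65) and the NMDA subunit Grin3a (0.88) were higher, while Grin1, Grin2a, Grin2b and Gria3 were not called, with log2 fold changes between -0.15 and 0.091. Grin2c was lower by a narrow margin (log2 fold change -0.33, SE 0.093, adjusted p = 0.017), a call that ended without amygdala library 13 (adjusted p = 0.053) or 16 (adjusted p = 0.059) and with scaling by library size alone (adjusted p = 0.16). Of 7 metabotropic receptors, 3 were higher and 2 lower (42.9% and 28.6%). They included the postsynaptic Grm5 (0.43) and the presynaptic Grm7 (0.51) on the higher side, and Grm3 (-1.02) and Grm4 (-0.84) on the lower. 

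GABA-A receptor subunits had 8 of 14 higher and 1 lower (57.1% and 7.14%), with a median of 0.28. Gabra2 was at 134, 136, 138 and 128 CPM in amygdala and 75.4, 84.6, 68.4, 64.9 and 79.5 CPM in cortex. Gabrd, the delta subunit of receptors outside the synapse, was at 32.4, 24.6, 25.7 and 27.7 CPM in amygdala and 45.8, 46.9, 44.99, 67.1 and 54.7 CPM in cortex. Among alpha subunits, Gabra2 (log2 fold change 0.85, SE 0.075, adjusted p = 5.5e-06) and Gabra5 (log2 fold change 0.79, SE 0.12, adjusted p = 2.8e-04) were higher. Gabrq, a subunit known from monoaminergic and hypothalamic neurons, was higher at a low level (2.06 against 0.283 CPM, log2 fold change 2.81), and Gabrd was lower (log2 fold change -0.91, SE 0.13, adjusted p = 1.7e-04).

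More potassium channels were lower than higher in amygdala, with 24 of 52 lower in amygdala and 10 higher (46.2% and 19.2%), and a median of -0.17. Kcns1, a silent subunit that changes Kv2 channels, was at 2.92, 4.84, 2.36 and 2.27 CPM in amygdala and 11.6, 16.9, 17.7, 16.5 and 21.7 CPM in cortex. Kcng1, another silent subunit of Kv2 channels, was at 58.01, 68.9, 50.1 and 54.6 CPM in amygdala and 21.02, 20.9, 19.2, 22.4 and 16.03 CPM in cortex. The silent subunits thus had opposite directions, each without overlap (log2 fold change -2.43, SE 0.24, adjusted p = 1.1e-05 for Kcns1, log2 fold change 1.54, SE 0.11, adjusted p = 1.0e-06 for Kcng1). Kcnj10, the inward rectifier of glial cells, was lower (42.9 ± 2.72 CPM in amygdala and 96.4 ± 14.8 CPM in cortex, adjusted p = 7.5e-06), and Kcnd3, an A-type channel, was higher (122 ± 4.97 CPM in amygdala and 68.5 ± 3.26 CPM in cortex, adjusted p = 7.5e-07). Scaled by library size alone, 15 potassium channels were lower, where 1347 of all genes tested were lower, against 2481 with TMM scaling.

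Sodium, calcium and HCN channels were divided, 15 of 33 higher and 10 lower (45.5% and 30.3%). Scn4b, an auxiliary sodium channel subunit of fast-spiking and striatal neurons, was at 16.9, 18.03, 13.3 and 15.7 CPM in amygdala and 82.6, 78.7, 72.9, 102 and 92.4 CPM in cortex. Amygdala held less than any cortex library (log2 fold change -2.42, SE 0.12, adjusted p = 6.3e-08), and Scn1a (-0.69) was also lower, whereas the auxiliary subunit Scn3b (0.72) and the R-type calcium channel Cacna1e (0.76) were higher. The pacemaker channel Hcn2 was lower as well (-0.92).

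Guidance and adhesion molecules, which wire circuits in development and persist at adult synapses, included 13 of 35 semaphorins, plexins, slits, netrins and their receptors higher in amygdala and 7 lower (37.1% and 20%), or 20 and 3 when scaled by library size alone. Slit1, a repellent ligand, was at 172, 202, 148 and 158 CPM in amygdala and 75.95, 69.4, 72.1, 83.7 and 63.8 CPM in cortex. Sema7a, a membrane-anchored semaphorin, was at 56.97, 69.9, 50.5 and 56.5 CPM in amygdala and 134, 168, 163, 206 and 179 CPM in cortex. Slit1 was higher and Sema7a lower in every amygdala library (log2 fold change 1.22, SE 0.095, adjusted p = 2.0e-06 for Slit1, log2 fold change -1.54, SE 0.12, adjusted p = 2.0e-06 for Sema7a). The receptors Nrp2 (1.39), Unc5d (1.43) and Unc5a (0.92) and the membrane netrin Ntng1 (1.54) were higher. All 3 slit genes of the list were among the 13, Slit1, Slit2 (0.83) and Slit3 (0.90). 

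Of 21 Eph receptors and ephrins, 6 were higher and 5 lower (28.6% and 23.8%). Efnb3, an ephrin, was 3.105-fold higher (183 ± 4.86 CPM in amygdala and 58.9 ± 8.03 CPM in cortex, adjusted p = 1.2e-07), and Ephb6, a receptor without kinase activity, was lower (55.7 ± 11.6 CPM in amygdala and 122 ± 26.9 CPM in cortex, adjusted p = 2.2e-04). Of 15 classical cadherins, 5 were higher, led in fold by Cdh9 (1.25), and 3 lower, led by Cdh6 (-1.49), shares of 33.3% and 20%. Retinoic acid genes had 3 of 15 in each direction (20% and 20%), among them Rxrg, a nuclear receptor partner, which was higher (29.02 ± 2.43 CPM in amygdala and 8.66 ± 0.747 CPM in cortex, adjusted p = 1.4e-07). Matrix genes of perineuronal nets had 1 of 12 higher and 3 lower (8.33% and 25%).

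Of 20 immediate early genes, which report recent neuronal activity, 3 were higher and 3 lower (15% and 15%), near the shares over all genes. Nr4a2 (1.22) and Nr4a3 (1.62), nuclear receptors that some neurons also hold at rest, were higher, Egr3 was lower (-0.78), and Fos was not called (6.59 against 8.27 CPM, adjusted p = 0.64).

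**Figure D3:**
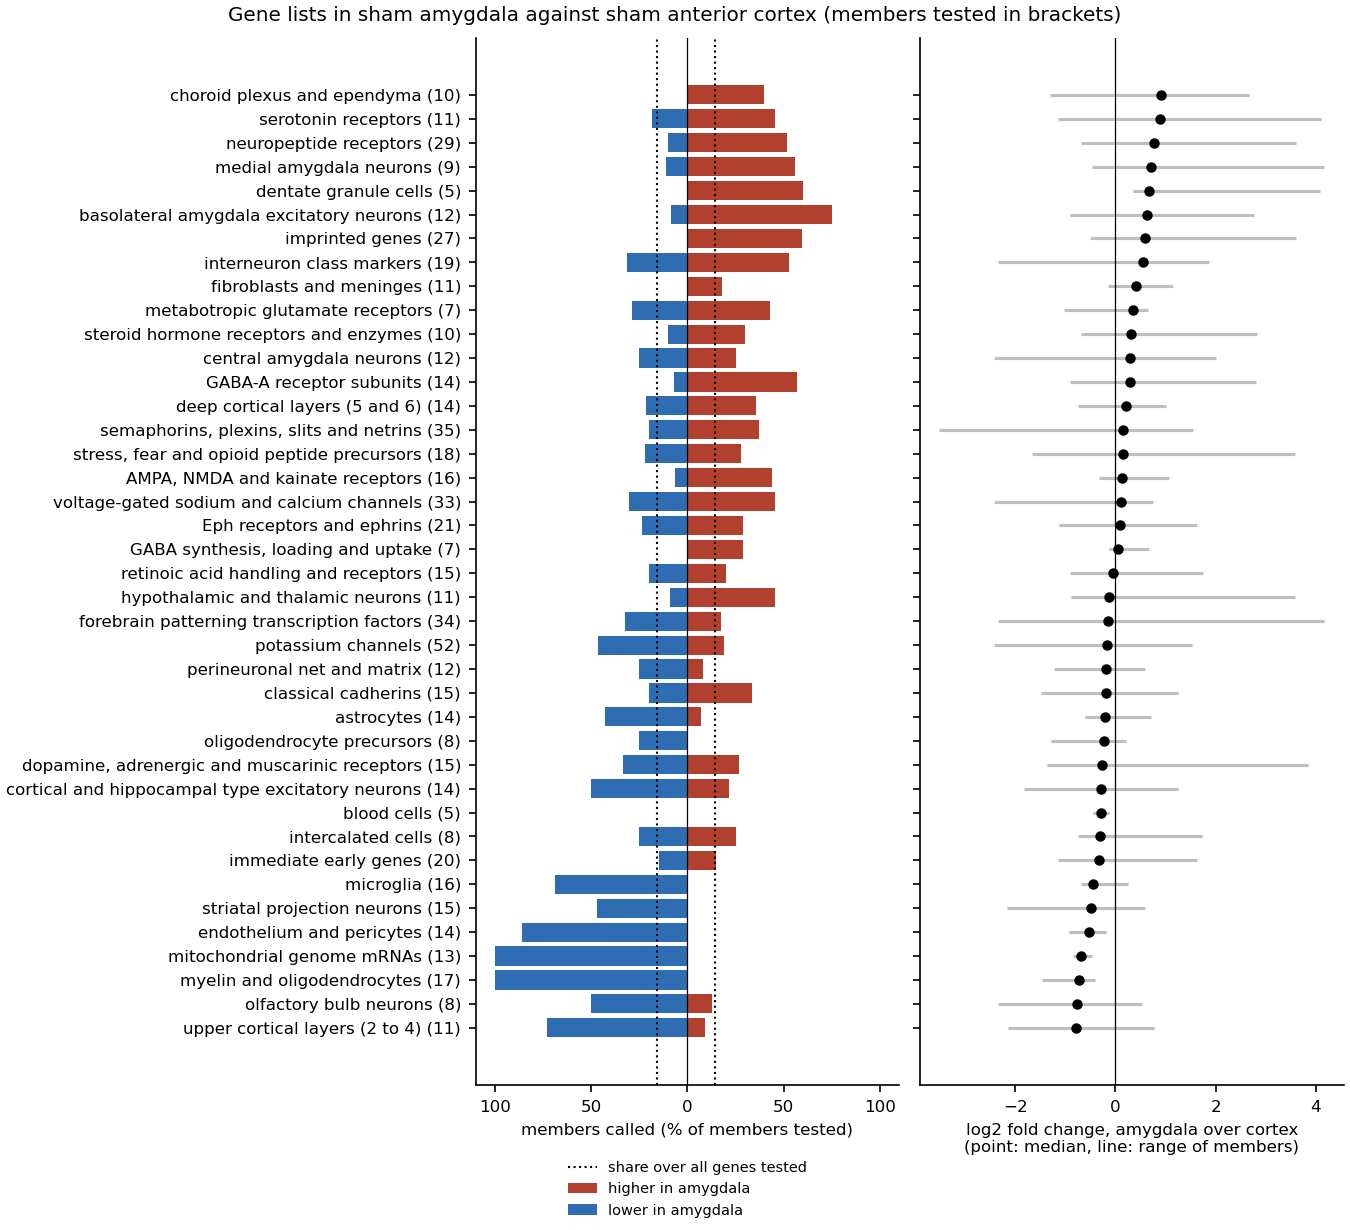
Left, share of the tested members of each list called higher (red, to the right) or lower (blue, to the left) in sham amygdala, with dotted lines at the shares over all 15769 genes tested (14.2% and 15.7%). Right, median (point) and range (line) of the members' log2 fold changes. All 17 myelin genes are on the lower side, and peptide receptors and imprinted genes reach far to the higher side.

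Markers of other cell types moved with the region and stand beside every neuronal result above. Striatal projection neuron markers were lower in amygdala in 7 of 15 and higher in 0 (46.7% and 0%), with a median of -0.50. Rgs9, a regulator of G protein signalling enriched in striatal neurons, was at 16.4, 8.25, 12.4 and 17.98 CPM in amygdala and 47.3, 32.8, 19.6, 35.2 and 35.3 CPM in cortex. Adora2a, the adenosine receptor of the indirect pathway, was lower (10.4 against 22.9 CPM, log2 fold change -1.14), and all 7 were called lower in the blast libraries too, with library 6 and without it. The list's mean log2 CPM ran from 3.03 to 3.84 in amygdala and from 3.61 to 4.42 in cortex. Drd1, Penk and Tac1 of the same list were not called. Their part in the central nucleus, interneuron, patterning factor and dopamine receptor results was not tested. Olfactory bulb markers, a list added after the results were seen, had 4 of 8 lower in amygdala and 1 higher (50% and 12.5%). Of 16 hypothalamic and thalamic markers listed, 11 were tested, with 5 higher and 1 lower (45.5% and 9.09%). The higher ones were at 26.8 against 11.7 CPM for Calb2 and had amygdala means of at most 3.87 CPM for the rest. The median over the 11 was -0.12, with 5 positive and 6 negative signs.

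Many myelin, microglial and vascular markers were lower in amygdala. All 17 myelin and oligodendrocyte genes tested were lower and 0 higher, with a median of -0.73, and all 17 had the same sign in the blast libraries, where 14 were called (16 without library 6). Mbp, the myelin basic protein, was at 1903, 1398, 1863 and 2051 CPM in amygdala and 5573, 4959.8, 5893, 3695 and 4851 CPM in cortex. Mobp, another compact myelin protein, was at 225, 169.6, 211 and 239 CPM in amygdala and 584, 557, 642, 329 and 501 CPM in cortex. Cortex library 16 was the lowest of its group for both, and the groups still did not overlap (log2 fold change -1.47, SE 0.14, adjusted p = 1.1e-05 for Mbp, log2 fold change -1.31, SE 0.16, adjusted p = 8.4e-05 for Mobp). The list's mean log2 CPM ranged from 6.15 to 6.51 in amygdala and from 6.83 to 7.39 in cortex. Without cortex library 16, 17 of 17 were called lower. Of 8 oligodendrocyte precursor markers, 2 were lower and 0 higher (25% and 0%), and Pdgfra, the defining receptor of these cells, was at 126 against 125 CPM and not called. 

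The promoter of Mobp is shown because it held the most copies, 8, of CTTTGT among the myelin promoters searched. CTTTGT is the reverse complement of ACAAAG, which lies within sites that SOX family factors bind, and is in capitals. The window has the length and build given above.
Mobp, chr8:128746982-128747281, plus strand: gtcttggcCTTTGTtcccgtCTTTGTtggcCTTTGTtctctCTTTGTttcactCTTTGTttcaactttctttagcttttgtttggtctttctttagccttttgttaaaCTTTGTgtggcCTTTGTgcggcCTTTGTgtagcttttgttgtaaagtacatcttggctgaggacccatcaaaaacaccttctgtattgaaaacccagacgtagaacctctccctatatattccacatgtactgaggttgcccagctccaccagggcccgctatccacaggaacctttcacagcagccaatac
At least 1 copy of ACAAAG on either strand was found in 4 of 11 myelin promoters with a RefSeq entry, and in 18.3% of all RefSeq promoters, 13.4% of those of tested genes and 13.7% of those of genes lower in amygdala. The copies lie in a stretch of similar repeats, and nothing about SOX binding follows from them.

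Microglial markers were lower in 11 of 16 and higher in 0 (68.8% and 0%, median -0.45), and markers of endothelium and pericytes in 12 of 14 and 0 (85.7% and 0%, median -0.53). Cx3cr1, the fractalkine receptor of microglia, was at 27.2, 23.2, 25.8 and 28.3 CPM in amygdala and 42.1, 42.6, 37.9, 31.3 and 40.6 CPM in cortex. Flt1, a VEGF receptor of endothelium, was at 72.04, 78.9, 68.2 and 93.01 CPM in amygdala and 140.3, 155, 169.8, 100.5 and 143 CPM in cortex. Both were lower in all amygdala libraries (log2 fold change -0.58, SE 0.098, adjusted p = 7.9e-04 for Cx3cr1, log2 fold change -0.86, SE 0.13, adjusted p = 3.7e-04 for Flt1). The mean log2 CPM of the lists ran from 4.31 to 4.85 in amygdala and 4.75 to 5.17 in cortex for microglia, and from 4.98 to 5.15 and 5.34 to 5.89 for endothelium. Their part in the neuronal results was not tested. Without cortex library 16 the counts were 13 and 13. Scaled by library size alone they were 7 and 11, where 1347 of all genes tested were lower, against 2481 with TMM scaling. Astrocyte markers were lower in 6 of 14 and higher in 1 (42.9% and 7.14%): the glutamate transporter Slc1a2 was lower (388 against 590.5 CPM), the angiotensinogen gene Agt higher (263 against 161 CPM), and Gfap and Aqp4 were not called.

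Of 15 choroid plexus and ependymal markers listed, 10 were tested, with 4 higher and 0 lower (40% and 0%), at low levels. Ttr, the carrier of thyroid hormone made by choroid plexus, was at 2.12, 9.43, 4.07 and 9.63 CPM in amygdala and 1.03, 0.152, 1.92, 1.13 and 0.731 CPM in cortex. In the blast amygdala libraries 1, 2, 5, 6 and 9 it was at 15.2, 1.82, 5.56, 3.43 and 1540.4 CPM, and in blast cortex libraries 1, 5 and 6 at 0.431, 0.745 and 1.73 CPM. The blast log2 fold change was 8.29 with library 9 (adjusted p = 0.091) and 2.73 without it (adjusted p = 0.048). Without library 6 it was 8.61 (adjusted p = 0.045). In the sham libraries the Ttr call ended when the spread was estimated over all 18 sham libraries (adjusted p = 0.36). Fibroblast and meningeal markers were higher in 2 of 11 and lower in 0 (18.2% and 0%), and 0 of 5 blood cell markers were called in either direction, the hemoglobin gene Hba-a2 standing at 259 against 352 CPM. 

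**Figure D4:**
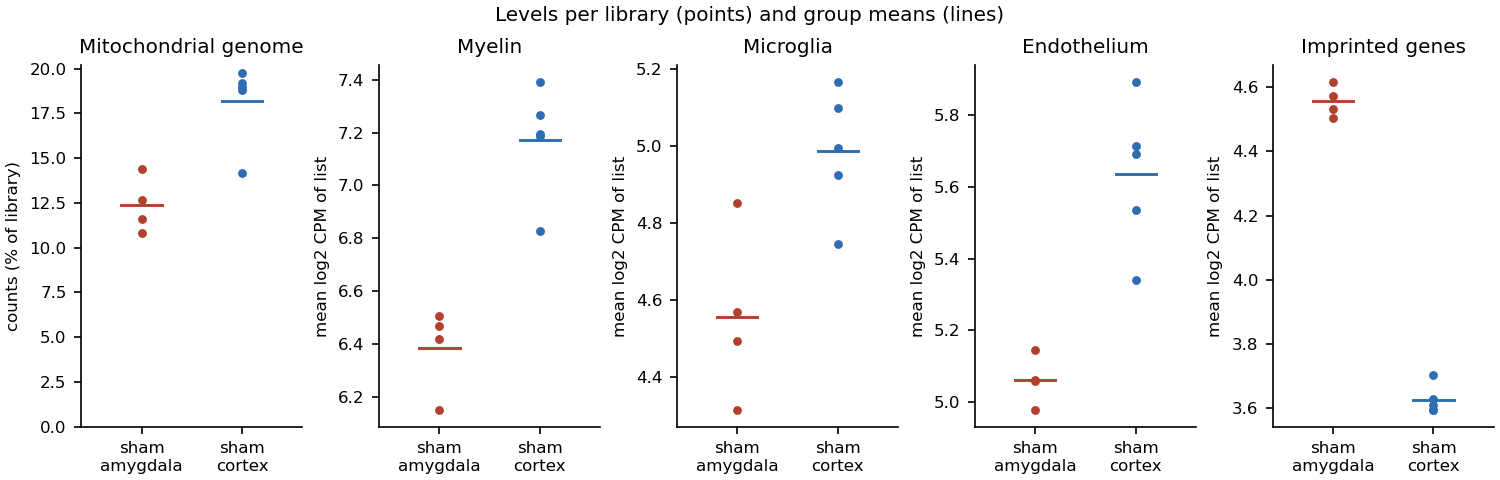
Share of counts on the mitochondrial genome (first panel, % of each library) and mean log2 CPM of 4 gene lists (other panels) in each sham amygdala library (red) and sham anterior cortex library (blue), with lines at the group means. Cortex library 16 is the lowest cortex library for mitochondrial counts (14.17%) and for myelin.

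Transcripts of the mitochondrial genome, which encode subunits of the respiratory chain, were lower in amygdala for all 13 mRNAs tested, a list added after the results were seen, with a median of -0.69, and all 13 were called lower in the blast libraries (12 without library 6). Mt-co1, a subunit of cytochrome oxidase, was at 29352, 24496, 26477 and 32462 CPM in amygdala and 55574, 54099.8, 54304, 38182 and 50474 CPM in cortex. The share of all counts on the mitochondrial genome was 12.67%, 10.84%, 11.6% and 14.41% in amygdala and 19.74%, 19.17%, 18.81%, 14.17% and 18.98% in cortex. These shares overlap only through cortex library 16, the lowest of its group, and amygdala library 18, the highest of its group. Without cortex library 16 the log2 fold change of Mt-co1 was -0.93. With the mitochondrial genes left out of the fit, 2220 genes were higher and 2475 lower in amygdala. The share also depends on how RNA was selected for the libraries, which the sources used here do not give, and its part in the other results was not tested beyond that fit.

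Over all lists together, 331 different members were called in the sham libraries. Of these 323 had the same sign in the blast libraries and 161 were called there in the same direction, or 327 and 225 without library 6, beside the shares over all genes given above.

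Called genes were spread over all chromosomes. On the autosomes the share called higher in amygdala was 13.8% and the share called lower 15.9%, whereas on the X chromosome the shares were 26.0% and 8.68%, and of 26 genes of the mitochondrial genome tested, transfer RNAs included, 19 were lower and 0 higher.

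**Figure D5:**
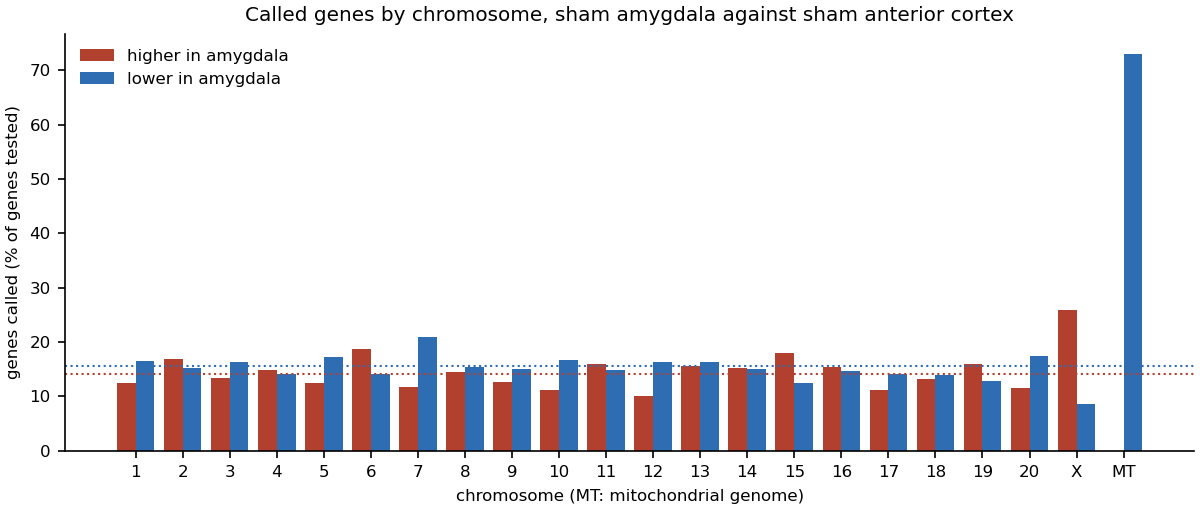
Share of tested genes on each chromosome called higher (red) or lower (blue) in sham amygdala, with dotted lines at the shares over all genes (14.2% and 15.7%). Of the chromosomes drawn (Y, with 7 genes tested, is not), X has the greatest red bar (26.0%), and the mitochondrial genome (MT) has no red bar, with 19 of 26 genes lower.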

How the data were processed

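The authors deposited 1 table per region, with raw read counts per gene and library and FPKM values (scaled by gene length and depth), per the file headers. RNA was extracted with Qiazol and RNeasy columns and made into NEBNext Ultra libraries, per the labels' protocols; CASAVA is named, without a version, in the submitters' processing notes. The sources used here name no aligner, counter, strand setting, genome build or annotation. FPKM served only to give the levels of Slc17a7 and Slc17a6 in both regions on the authors' scale, without TMM scaling, and was not tested. A further 55 per-sample columns were not used.

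Tables were joined by Ensembl ID (22486 genes in both; 26 names had been turned into dates). Genes passing filterByExpr were scaled by TMM and tested in R 4.3.3 with edgeR 4.0.16 (glmQLFit, glmQLFTest, glmTreat), with Benjamini-Hochberg adjustment over all genes tested; DESeq2 1.42.0 and limma 3.58.1 gave alternatives, and the scripts were tested on simulated data. SE belongs to log2 fold changes and SD to CPM (n = 4 amygdala, 5 cortex). List levels are means of log2 CPM with a prior count of 2. Promoters (RefSeq, GRCr8) matched 11019 tested genes by symbol and were searched on both strands for the cAMP response element TGACGTCA with the variant form TGACGCAA, the E-box motif CACGTG, the homeodomain core TAATTA, the nuclear receptor motif AGGTCA, and for SOX factors the core ACAAAG, its longer form ACAAAGG that contains it, the relative ACAATGG and the shorter core AACAAT.

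The libraries compared and the 36 gene lists (559 genes, 14 unmatched) were chosen with earlier results of these data known, and 4 further lists were added later. Genes were named by rule: called, not overlapping and at 5 CPM or more, the 12 of greatest fold and the 8 of greatest CPM difference in each direction, up to 4 called members per list and direction by p, and 28 fixed genes. A further 37 genes were chosen after their values were seen, and a few genes the rule names are not reported here.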

Additional observations from a re-analysis of the deposited data

Results flagged for a closer look

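Single libraries that stood apart from the rest of their group were looked for in 418 sets of values (genes, list means and the mitochondrial share, each in 1 group), by the gap to the nearest library relative to the group's range; 30 were found, and chance alone flags about 1 in 20.

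Cortex library 16 accounted for several. Its mitochondrial share was 14.17%, below 18.81% to 19.74% in the other cortex libraries, and its mean log2 CPM was 12.06 for mitochondrial mRNAs (12.58 to 12.69 in the others), 7.959 for astrocyte markers (8.236 to 8.336) and 0.749 for hypothalamic and thalamic markers (1.228 to 1.366). The same library was high for dopamine, adrenergic and muscarinic receptors (3.809, against 3.376 to 3.47), and in CPM for Slc17a7 (1471, against 1035 to 1146), Cck (456.4, against 282.9 to 304.7), Unc5a (112.9, against 81.45 to 90.04) and Rspo2 (21.83, against 13.1 to 14.79).

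Amygdala library 13 was low in mean log2 CPM of upper layer markers (3.11, against 3.262 to 3.267), intercalated cell markers (3.542, against 3.934 to 3.99) and patterning factors (3.55, against 3.707 to 3.733), and high for metabotropic glutamate receptors (5.22, against 4.929 to 4.976). It was also low in CPM for Lmo3 (88.25, against 116.9 to 122.7) and high for Pvalb (23.21, against 14.97 to 16.24) and Ift74 (19.06, against 16.39 to 16.75).

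The remaining ones in the sham libraries were single values. Amygdala library 12 was high for Sccpdh (39.27 CPM, against 4.938 to 9.855) and for immediate early genes (mean log2 CPM 4.559, against 4.188 to 4.208). Amygdala library 16 was low for Unc5a (149.3 CPM, against 175.5 to 179.9), and amygdala library 18 high for Rxrg (32.64 CPM, against 27.41 to 28.06) and Pdgfra (137.7 CPM, against 120.4 to 122.4). Cortex library 18 was high for Crhr2 (5.519 CPM, against 1.888 to 2.64) and Prkcd (26.07 CPM, against 17.99 to 19.41), and cortex library 13 for Htr5b (0.99 CPM, against 0 to 0.1521).

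In the blast amygdala group the list means were examined in the same way. Library 6 was high in mean log2 CPM of upper layer markers (4.007, against 3.144 to 3.39) and low for basolateral markers (4.388, against 5.034 to 5.184), patterning factors (3.299, against 3.634 to 3.746), neuropeptide receptors (2.436, against 2.798 to 2.888) and imprinted genes (3.785, against 4.407 to 4.606). Library 9 was high for choroid plexus markers (5.261, against 0.477 to 1.206).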

How the results depend on the processing

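The sham count of 4715 genes stayed between 4261 and 5149 under DESeq2 size factors, upper-quartile factors, no filter on low counts, genes of one table entered with 0 counts in the other, a spread shared over 18 sham libraries, the replicate block, no mitochondrial genes, the DESeq2 Wald test and limma-voom. Scaling by library size alone gave 6174 calls, 4827 higher and 1347 lower in amygdala, 78.2% of calls on the higher side against 47.4%. Leaving out each library in turn gave 3696 to 4923 calls, 1728 to 2326 higher and 1968 to 2597 lower, and 411 to 527 genes beyond 1.5-fold. In the blast libraries the leave-one-out counts ran from 998 to 2638. Genes called in the sham libraries with the same sign alone in the blast libraries numbered 4519, against 1593 called in both; leaving out each blast library in turn gave 871 to 2130, an alternative chosen after seeing the data. The region by treatment count ranged from 0 to 1 over the fits without a library, the 1 without blast cortex library 5, and was 4 by DESeq2.

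Libraries of both regions share numbers, and same-numbered libraries had correlated deviations from their group means (r of 0.14, 0.13, 0.092 and 0.14 for 12, 13, 16 and 18). Since 1 of the 4 stayed under 0.1 and amygdala library 13 was as close to cortex library 16 (0.093), the samples were taken to share only a number, although every amygdala library correlated best with the cortex library of its own number, a hint from the data. With the replicate block the sham comparison called 4261 genes, 1952 higher and 2309 lower, and 563 beyond 1.5-fold; the blast comparison called 246 with 3 pairs (libraries 1, 5 and 6), 233 of them shared with the 4715 and 121 with the 516 beyond 1.5-fold, among them 2 of 17 myelin genes, 1 of 13 mitochondrial mRNAs and 1 of 27 imprinted genes called, and the region by treatment test called 0.

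Of 124 called genes named in the text, 117 kept direction and call in every alternative that could be fitted. The other 7 were Cartpt, Gad1, Grin2c, Oprm1, Rspo2, Ttr and, with library size alone (adjusted p = 0.067), Htr2a. The genes that changed sign were not called. With library size alone Gria3 was at 0.018, Grin2a at 0.12 and Prkcd at 0.016; over the fits without a library the log2 fold change ran from -0.026 to 0.12 for Aqp4, from -0.041 to 0.18 for Cyp26b1, from -0.077 to 0.14 for Fezf2, from -0.54 to 0.28 for Fos, from -0.18 to 0.077 for Grin2a and from -0.042 to 0.031 for Pdgfra. Library size alone also made 5 of 10 steroid genes higher, 4 of 7 GABA genes and 8 of 18 peptide precursors, and moved 24 of 40 list medians by more than the spread between libraries. The median of all genes moved too, from 0.008 to 0.18. Genes under about 5 CPM rest on few counts, so their folds are imprecise. The causes of these changes were not tested.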

Other observations

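Imprinted genes, of which only the copy from 1 parent is expressed, were higher in amygdala as far as they were called. A list of 32 such genes was drawn up after the results were seen, so its counts are a description: 16 of 27 tested were higher and 0 lower (59.3% and 0%, against 14.2% and 15.7% of all genes), with a median log2 fold change of 0.60 against 0.008 over all genes, and 24 had a positive sign. Nnat, a small membrane protein of growing and mature neurons, was at 653, 676, 571 and 676 CPM in amygdala and 227, 174, 213, 191 and 213 CPM in cortex. Peg3, a zinc finger gene expressed from the paternal copy, was at 517, 567, 593 and 582 CPM in amygdala and 354, 375, 355, 362 and 389.7 CPM in cortex. The groups did not overlap for either gene (log2 fold change 1.66, SE 0.083, adjusted p = 8.4e-08 for Nnat, log2 fold change 0.62, SE 0.059, adjusted p = 9.7e-06 for Peg3). The neighbours Ndn (0.79) and Magel2 (1.87) of the Prader-Willi region, the thyroid hormone deiodinase Dio3 (1.91) and the amino acid transporter Slc38a4 (2.87) were higher, while Ube3a (0.19) and Gnas (0.12) were not called. In the blast libraries all 16 genes had the same sign and 9 were called, or 14 without blast amygdala library 6.

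The balance of directions on the X chromosome was not that of the autosomes. Of 553 X-linked genes tested, 144 were higher (26.0%) and 48 lower (8.68%), against 13.8% and 15.9% of 15166 autosomal genes, and their median log2 fold change was 0.11 against 0.0056. Pcdh19, an X-linked protocadherin, was at 43.04, 45.5, 43.3 and 40.8 CPM in amygdala and 18.9, 20.3, 13.97, 17.3 and 17.9 CPM in cortex. Its groups did not overlap (log2 fold change 1.29, SE 0.097, adjusted p = 1.6e-06). Arhgap36 (3.24) and Pak3, a kinase of dendritic spines (1.204), were also higher. By genomic span, 7.54% of the shortest and 22.4% of the longest of 5 equal bins of genes were called higher, and in each bin the X-linked share (22.1% to 31.3%) was above the autosomal one (6.81% to 22.0%). In the blast libraries 54 of the 553 X-linked genes were called higher and 34 lower, with a median of 0.07, against 4.96% and 7.23% of all genes. Without blast amygdala library 6 the counts were 82 and 39, with a median of 0.088, against 7.15% and 9.58% of all genes. The lower calls on X were nearer to the share over all genes there than in the sham libraries. Gene by gene these are the same fits as above, and no test of the chromosome was made.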
